A study of Drosophila melanogaster with 16 samples.

Results

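Steady-state sense RNA of transposons was compared between ovaries of Drosophila melanogaster with piwi knocked down under the nos-GAL4 driver and ovaries with white knocked down under the same driver. The members were 113 of the 119 transposon families in the RNA-seq table, those averaging 1 RPM (reads per 1000000 reads of a library) or more over the 4 sense columns, and 125 families were listed over all tables used. The series holds 16 samples, and this comparison rests on 1 RNA-seq sample labelled nos-GAL4->piwi and 1 labelled nos-GAL4->white, with Tj-GAL4->piwi and Tj-GAL4->white set beside them. All ovaries came from flies aged 3 to 5 days and kept at 25 degrees, and every group, the white controls included, carried a GAL4 driver and a knockdown. RNA-seq libraries were made from 150 ng of total RNA. Knockdown of white, an eye colour gene, served as the control, and no ovary without a knockdown was analysed here. nos-GAL4 is active in germ cells and Tj-GAL4 in the somatic cells around them, so nos piwi ovaries keep somatic cells with their own Piwi. The tables used list transposons alone, so the level of piwi and the makeup of the tissue were not checked. In whole ovaries, fewer cells of a type and less RNA per cell cannot be told apart.

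Piwi is a nuclear Argonaute protein that binds piRNAs, small RNAs that pair with transposon transcripts, and it is known for silencing their transcription along with deposition of the histone mark H3K9me3. In the fly ovary the pathway works in germ cells and in the surrounding follicle cells, and each compartment is known to host its own set of active elements. LTR retrotransposons (the gypsy, BEL-Pao and copia groups) and LINE elements copy themselves through an RNA intermediate, so their sense RNA is also the template of new copies, whereas DNA transposons move by excision. HeT-A, TAHRE and TART are LINE-type elements that transpose to chromosome ends and maintain fly telomeres.

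The deposited table gives 1 column per condition and strand, while the series states 2 replicates for RNA-seq. The steps between its values fitted a mean of 2 libraries per column. Totals were 9404654 and 1346679 units in nos piwi and 3467480 and 1228186 units in nos white. A unit was taken here as 1 read, but 9 sense values in nos piwi and 11 in nos white were solved only in steps of 0.5 unit. A multiple of these totals would fit as well and leaves every RPM as it is. For 62 of the 113 families the level in each library could be recovered in both knockdowns. The labels do not say whether the libraries came from separate flies, so their spread may be technical. This step was chosen after the values were seen. No test was run, and "higher" and "lower" describe sizes on the scale of RPM + 1, which understates the change of low families.

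Germline knockdown of piwi went with a large excess of transposon sense RNA, spread over many families and carried by few. Summed sense RNA was 44345 RPM in nos piwi and 7944 RPM in nos white, a 5.58-fold difference. Of the 113 families, 59 were at least 2-fold higher in nos piwi (52.2%) and 0 were at least 2-fold lower (0.0%), by the values side by side. Relative to the median family the counts were 38 higher and 15 lower. Over the 113 families the median log2 ratio was 1.10, and 24 families were at least 10-fold and 8 at least 100-fold higher. Families with over 1000 RPM numbered 11 in nos piwi and 2 in nos white. The 10 largest gains, piwi minus white RPM, made up 80.0% of all gains summed, and 4 families, HeT-A, copia, TAHRE and 3S18, made up more than 50% of them. RPM are not divided by element length, so shares are shares of reads and not of RNA molecules.

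The makeup of the transposon RNA turned over between the knockdowns. In nos white the DNA transposon hopper alone held 44.1% of sense reads, at 3507 RPM, and the LINE element BS held 17.3%, at 1373 RPM. In nos piwi hopper had 2959 RPM and BS 1754 RPM, close to their control levels, but their shares were 6.67% and 3.95%. Without hopper, summed sense RNA was 41386 RPM in nos piwi and 4437 RPM in nos white, a 9.33-fold difference. The 5 telomeric families held 36.4% of sense reads in nos piwi and 0.919% in nos white, and all LTR families together 49.9% in nos piwi and 28.4% in nos white. Jockey-clade LINE elements held 5.98% in nos piwi and 24.4% in nos white, and DNA transposons 7.02% in nos piwi and 45.2% in nos white.

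**Figure D1:**
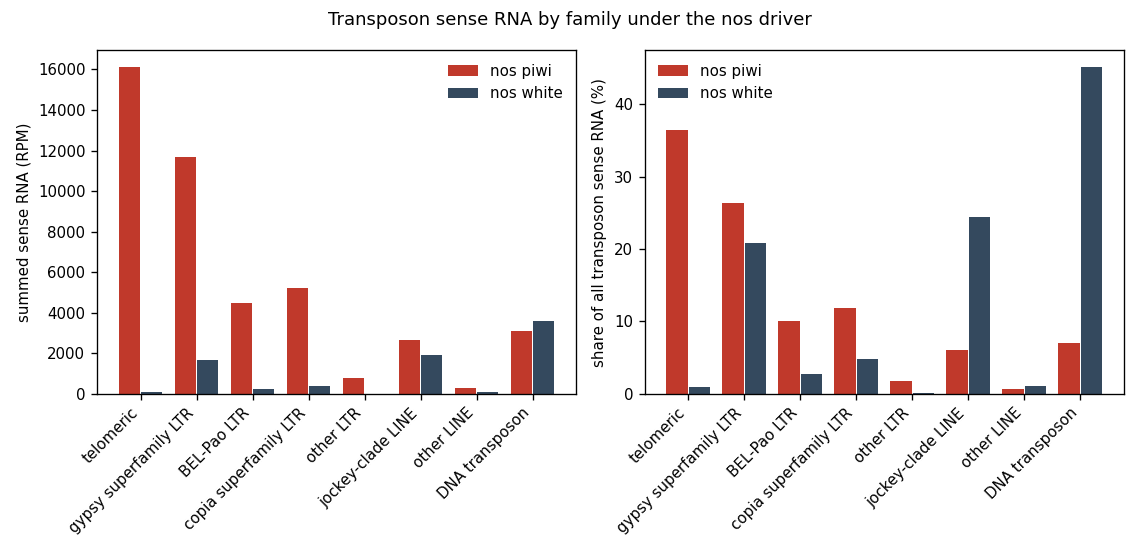
Summed sense RNA per family group (left, RPM) and its share of all transposon sense RNA (right, percent) in nos piwi (red) and nos white (dark) ovaries, 1 column per knockdown. The telomeric bar stands at 16134 RPM in nos piwi and 73.0 RPM in nos white, while the DNA transposon bar is lower in nos piwi, at 3114 RPM, against 3589 RPM in nos white.

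All 5 telomeric families were at least 98.8-fold higher in nos piwi, and their median log2 ratio was 7.50 beside 1.10 for all families. HeT-A, the most abundant member, had 8533 RPM in nos piwi and 24.3 RPM in nos white, a 337-fold difference and 23.0% of all gains. TAHRE had 3409 RPM in nos piwi and 26.5 RPM in nos white (124-fold). TART-B had 2145 RPM in nos piwi and 7.69 RPM in nos white (247-fold). HeT-A was the family with most sense reads in nos piwi and was in place 26 in nos white. TART-A had 1128 RPM in nos piwi and 10.4 RPM in nos white (98.8-fold). TART-C had 919 RPM in nos piwi and 4.07 RPM in nos white (181-fold), and that control value rests on at least 10 units. The separate libraries of these members could not be recovered in both knockdowns. If all control reads came from the smaller library, the SD from counting would be at most 1.29 RPM for TART-C and 3.15 RPM for HeT-A, and the upper 95% bound of the control would leave 121-fold for TART-C and 271-fold for HeT-A.

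**Figure D2:**
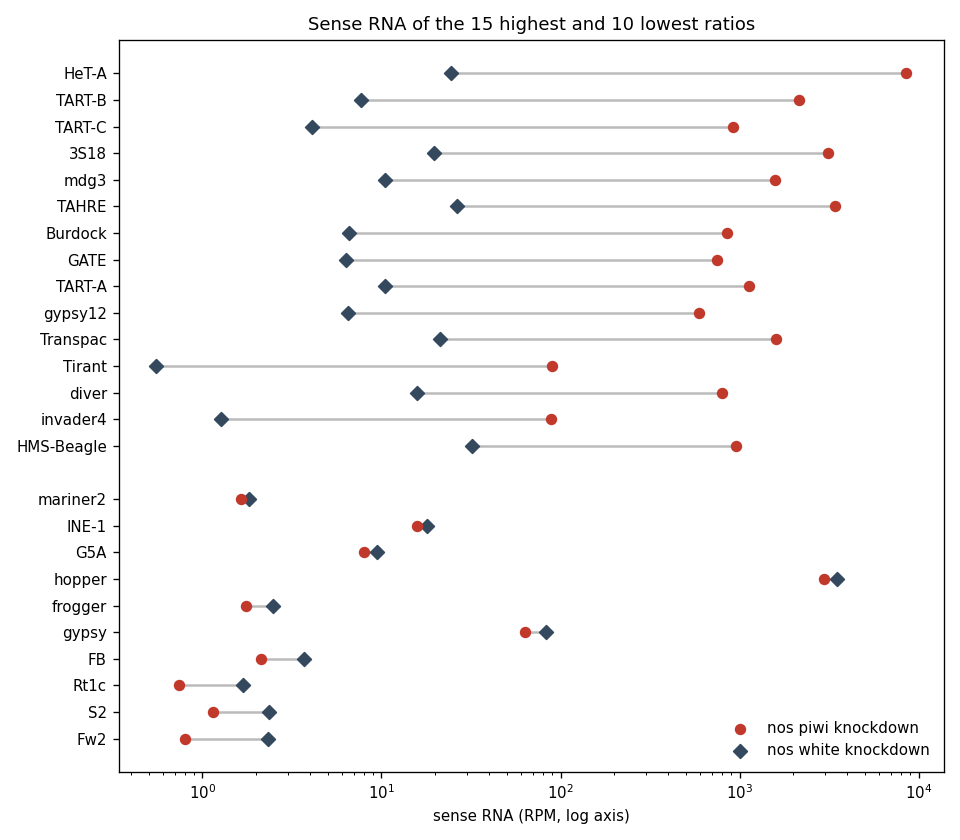
Sense RNA in RPM on a log axis for the 15 families with the highest and the 10 with the lowest ratios, nos piwi as red circles and nos white as dark diamonds, each joined by a line. The highest ratios start from control levels between 0.551 RPM (Tirant) and 32.0 RPM (HMS-Beagle), and hopper is the abundant family among the lowest, at 2959 RPM in nos piwi and 3507 RPM in nos white.

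In the gypsy superfamily, LTR retrotransposons related to retroviruses, 29 of 46 members reached 2-fold (63.0%) and 12 reached 10-fold, and the median log2 ratio was 1.95. Over all 113 families 52.2% reached 2-fold and 24 families 10-fold, around a median of 1.10. Under Tj-GAL4, 30 of the 46 gypsy members reached 2-fold, beside 44 of all 113. The elements mdg3, Burdock, gypsy12 and Transpac led the group. mdg3 had 1576 RPM in nos piwi and 10.5 RPM in nos white (138-fold). Burdock, an element often used to report loss of germline piRNA silencing, had 854 RPM in nos piwi and 6.60 RPM in nos white (113-fold). Transpac had 1603 RPM in nos piwi and 21.2 RPM in nos white (72.1-fold). The element blood was already abundant in the control and so added many reads at a smaller ratio, with 2577 RPM in nos piwi and 163 RPM in nos white (15.7-fold, 6.53% of all gains). Families known from follicle cells did not go one way. Tirant had a 58.4-fold ratio over a control of 0.551 RPM that rests on at least 1 unit. Idefix had a 6.13-fold ratio, with 64.9 RPM in nos piwi and 9.75 RPM in nos white. ZAM had 139 RPM in nos piwi and 108 RPM in nos white (1.28-fold), and gypsy, the lowest of the group, had 63.2 RPM in nos piwi and 82.8 RPM in nos white (0.766-fold). The abundant members opus and mdg1 also differed little, at 1.36-fold and 1.30-fold.

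In the BEL-Pao group 4 of 6 members reached 2-fold (66.7%), and the median log2 ratio was 2.74, beside 52.2% and 1.10 over all families. 3S18 had 3132 RPM in nos piwi and 19.6 RPM in nos white (152-fold), diver 799 RPM in nos piwi and 15.7 RPM in nos white (47.9-fold), and Max-element 338 RPM in nos piwi and 26.1 RPM in nos white (12.5-fold). Its member roo, at 175 RPM in nos piwi and 143 RPM in nos white, was 1.22-fold the control. GATE, an LTR element kept outside these groups, had 744 RPM in nos piwi and 6.31 RPM in nos white (102-fold). In the copia group the response was that of copia itself, with 5120 RPM in nos piwi and 301 RPM in nos white (16.9-fold) and 13.0% of all gains. The other 3 members were under 2-fold, among them Dm88 at 1.83-fold and frogger, at 1.75 RPM in nos piwi and 2.47 RPM in nos white.

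Of 19 jockey-clade LINE members 7 reached 2-fold, around a median log2 ratio of 0.52, which is below the 52.2% and 1.10 over all families. Of 10 other LINE members 5 did, around a median of 1.04, close to all families. G-element had the highest ratio, with 42.0 RPM in nos piwi and 0.984 RPM in nos white (21.7-fold). Its control libraries held only 4 and 1 units. I-element, the agent of I-R hybrid dysgenesis, had 179 RPM in nos piwi and 32.2 RPM in nos white (5.41-fold). The namesake jockey had 99.6 RPM in nos piwi and 34.3 RPM in nos white (2.85-fold). The abundant elements BS and Doc were 1.28-fold and 1.19-fold the control. R2-element, which inserts into ribosomal RNA genes, had 8.81 RPM in nos piwi and 3.21 RPM in nos white (log2 ratio 1.22). R1A1-element had 25.4 RPM in nos piwi and 13.5 RPM in nos white (log2 ratio 0.87).

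Among DNA transposons 5 of 20 members reached 2-fold (25.0%), and the median log2 ratio was 0.42, beside 52.2% and 1.10 over all families. Bari1, a Tc1-like element, was the highest, with 11.1 RPM in nos piwi and 0.984 RPM in nos white (6.12-fold). Its control libraries held only 4 and 1 units. Next came pogo, with 19.1 RPM in nos piwi and 4.003 RPM in nos white (4.01-fold). S2 was the lowest of the group, at 1.14 RPM in nos piwi and 2.36 RPM in nos white (log2 ratio -0.65). Of the 113 families 12 had less sense RNA in nos piwi than in nos white. Over all 119, the losses other than that of hopper summed to 30.1 RPM, hopper alone accounting for 548 RPM. The lowest ratio of all was that of Fw2, a LINE element, at 0.796 RPM in nos piwi and 2.33 RPM in nos white (log2 ratio -0.89).

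The recovered libraries show how far the values of a knockdown lay apart. Of the 62 families with recovered libraries, 31 were at least 2-fold higher (50.0%), and in all 31 both nos piwi libraries lay above both nos white libraries, as they did in 46 of the 62 (74.2%). The 31 were chosen by the means of these same libraries, so their separation is a description and no support. In 25 of the 31 the lower nos piwi library was still at least 2-fold above the higher nos white library. 3S18 had 2978 and 3287 RPM in the nos piwi libraries, against 23.6 and 15.5 RPM in the nos white libraries. Burdock had 807 and 902 RPM in nos piwi, against 7.50 and 5.70 RPM in nos white. Transpac had 1902 and 1305 RPM in nos piwi, against 25.4 and 17.1 RPM in nos white. In these LTR elements the groups are separated by a wide gap that neither library of a pair closes. I-element had 206 and 151 RPM in nos piwi, against 30.3 and 34.2 RPM in nos white. Libraries of the same knockdown differed by a median of 1.29-fold in nos piwi and 1.34-fold in nos white, on the RPM + 1 scale, and at most by 2.61-fold in nos piwi and 3.57-fold in nos white. The pooled SD of log2(RPM + 1) was 0.44 in each knockdown.

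**Figure D3:**
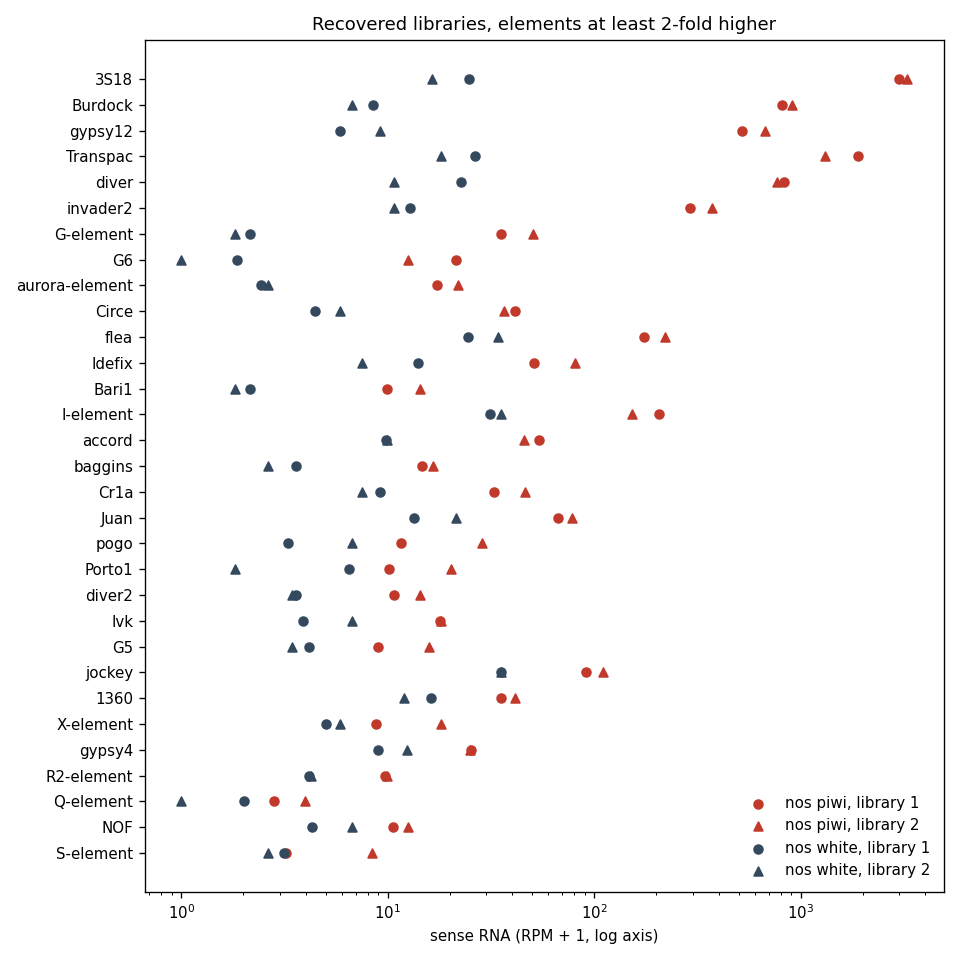
Sense RNA in RPM + 1 on a log axis in each recovered library, for the 31 families with recovered libraries that were at least 2-fold higher, nos piwi in red and nos white in dark, with circles for library 1 and triangles for library 2. The red points lie right of the dark points for each family, with the narrowest gap for S-element, at 2.23 and 7.43 RPM in nos piwi and 2.16 and 1.63 RPM in nos white.

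Ratios near 2-fold differed in how far their libraries lay apart, and several rest on few units. Just above the mark lay S-element, NOF, gypsy6, Q-element and R2-element, with log2 ratios of 1.01, 1.07, 1.10, 1.17 and 1.22. Just under it lay Tc3, hobo, Dm88, R1A1-element and gypsy3, at 0.98, 0.96, 0.87, 0.87 and 0.84. The libraries of gypsy6 and gypsy3 were not recovered in both knockdowns. The DNA transposon hobo had 4.25 and 5.94 RPM in the nos piwi libraries, against 3.46 and 0.814 RPM in those of nos white. Its control libraries lay far apart but held only 12 and 1 units. Dm88, under the mark, had 72.1 and 64.6 RPM in nos piwi, against 37.2 and 36.6 RPM in nos white, with little spread. Over the pairs of libraries its log2 ratio ran between 0.78 and 0.96 and that of R2-element between 1.19 and 1.25, while that of S-element ran between 0.03 and 1.68. The R2-element libraries held 82 and 12 units in nos piwi and 11 and 4 in nos white. With so few units its narrow range can arise by chance. With a pseudocount of 5 RPM the log2 ratio of R2-element was 0.75, under the mark. Among the 31 recovered families under 2-fold, both nos piwi libraries lay above both of nos white in 15, below in 4 (6.45% of the 62) and overlapped in 12. The 4 that lay below were Fw2, S2, Rt1c and G5A, none above 10 RPM in any library. The level filter left out 6 families, of which hopper2, at 2.58 RPM in nos piwi and 0.288 RPM in nos white, had a log2 ratio over 1. Fw3, with a mean of 0.988 RPM, lay just outside the filter and G3, with 1.06 RPM, just inside.

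The same families were set beside the somatic knockdown, with no test of the difference between drivers. Under Tj-GAL4, 44 of the 113 were at least 2-fold higher in piwi than in white knockdown (38.9%) and 2 at least 2-fold lower (1.77%). The 29 families that passed under both drivers were 49.2% of those under nos and 65.9% of those under tj. Of the 24 families at least 10-fold higher under nos, 12 were under 2-fold under tj. They were HeT-A, TAHRE, TART-A, TART-C, Burdock, GATE, gypsy12, diver, invader2, Max-element, G-element and copia. Most of all 113 families were also not 2-fold higher under tj. The reverse held for 4 of the 10 families at least 10-fold higher under tj: ZAM, gypsy, gypsy5 and springer. Over all 113 families, 54 were under 2-fold under nos. Tirant, HMS-Beagle, HMS-Beagle2 and blood were at least 10-fold higher under both. Tirant had 89.5 RPM in nos piwi and 0.551 RPM in nos white, and 187 RPM in tj piwi and 1.99 RPM in tj white. The telomeric families summed to 116 RPM in tj piwi and 85.4 RPM in tj white, beside 16134 RPM in nos piwi and 73.0 RPM in nos white.

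**Figure D4:**
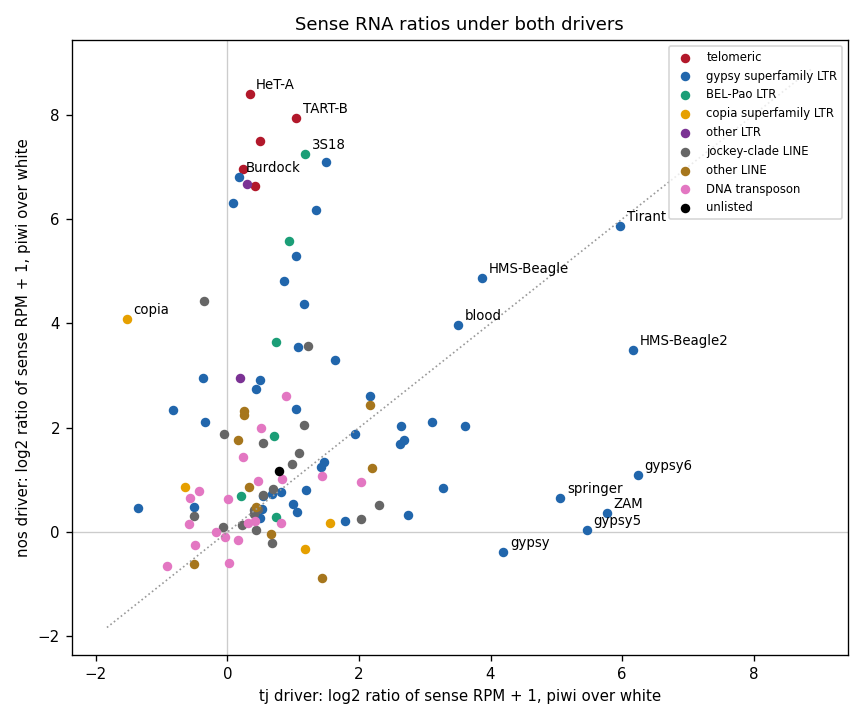
Log2 ratio of sense RPM + 1, piwi over white, under nos-GAL4 (vertical) against Tj-GAL4 (horizontal) for the 113 families, coloured by family group, with the line of equal ratios dotted. Telomeric families sit at the upper left, HeT-A at 8.40 under nos and 0.34 under tj, and ZAM and gypsy5 at the lower right, at 0.36 and 0.03 under nos and 5.77 and 5.47 under tj.

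The ratio of copia went opposite ways under the drivers. It had 5120 RPM in nos piwi and 301 RPM in nos white, but 6027 RPM in tj piwi and 17433 RPM in tj white. The piwi knockdowns thus had similar levels, and the tj white level was 57.8 times that of nos white. Input DNA of copia was 1452 RPM in nos piwi and 1175 RPM in nos white, and 1397 RPM in tj piwi and 995 RPM in tj white. Nascent RNA of copia was 584 RPM in nos piwi and 136 RPM in nos white, and 611 RPM in tj piwi and 444 RPM in tj white. Under tj it was thus higher in the piwi knockdown, while steady-state RNA was lower.

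Antisense RNA of the same libraries was a measure that did not choose the members. It was at least 2-fold higher in nos piwi for 53 of the 113 families (46.9%) and for 42 of the 59 with at least 2-fold more sense RNA. In total it differed little, at 63797 RPM in nos piwi and 54192 RPM in nos white, so the sense strand made up 41.0% of transposon reads in nos piwi and 12.8% in nos white. HeT-A antisense RNA was 1433 RPM in nos piwi and 5.99 RPM in nos white, and the sense strand held 85.6% of its reads in nos piwi and 80.3% in nos white. In TART-C the balance of strands turned, with antisense RNA at 318 RPM in nos piwi and 139 RPM in nos white and a sense share of 74.3% in nos piwi and 2.85% in nos white. HMS-Beagle kept more antisense than sense reads, but its sense share was far higher in nos piwi, at 45.2%, than in nos white, at 3.08%. Of mdg1, whose reads were nearly all antisense, the sense share was 1.20% in nos piwi and 0.942% in nos white.

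Nascent sense RNA, measured by GRO-seq in nuclei, was at least 2-fold higher in nos piwi for 41 of the 113 families (36.3%) and at least 2-fold lower for 1, frogger (0.885%). Of the 59 families with at least 2-fold more steady-state RNA, 39 also passed in nascent RNA, and the steady-state ratio was the larger in 58. These 59 were chosen by a high steady-state ratio, which favours that count; it was 92 of all 113 families and 34 of the 54 under 2-fold. The 11 families with at least 64-fold more steady-state RNA had nascent log2 ratios between 1.06 and 3.98, with a median of 2.36 beside 6.95 in steady-state RNA. The 14 families between 8-fold and 64-fold had a nascent median of 2.11, and those between 2-fold and 8-fold 0.80. The nascent ratio thus hardly separated the 2 highest groups. HeT-A had 251 RPM of nascent RNA in nos piwi and 48.0 RPM in nos white (5.14-fold), whereas 3S18 had 944 RPM in nos piwi and 77.5 RPM in nos white (12.0-fold). invader4 had 142 RPM of nascent RNA in nos piwi and 91.7 RPM in nos white (1.55-fold), beside 39.5-fold in steady-state RNA. The assays were scaled separately. In all 11 of the top families, as in most of the 113, the nos white level was higher in nascent than in steady-state RPM.

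**Figure D5:**
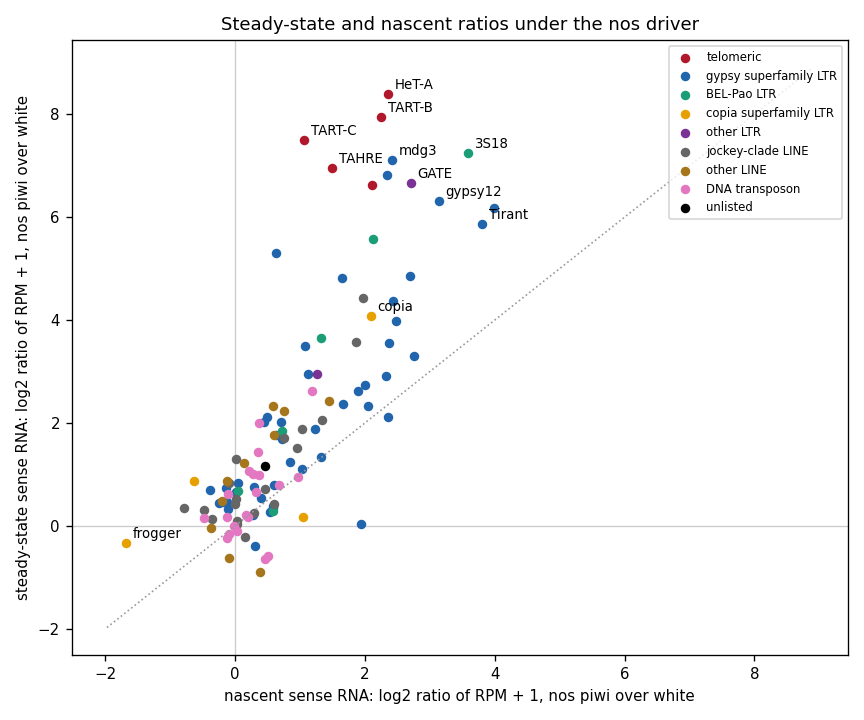
Log2 ratio of RPM + 1, nos piwi over nos white, in steady-state sense RNA (vertical) against nascent sense RNA (horizontal) for the 113 families, coloured by family group, with the line of equal ratios dotted. Most families lie above the dotted line, TART-C far above it at 7.50 in steady-state and 1.06 in nascent RNA, and frogger lies at -0.33 and -1.68.

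H3K9me3 over input was at least 2-fold lower in nos piwi for 6 of 109 families with at least 100 reads in each library (5.5%) and at least 2-fold higher for 0 (0.0%). Among the families with at least 64-fold more RNA, the median ratio of enrichment, nos piwi over nos white, was 0.513, against 0.917 for families under 2-fold. In the 10 of these 11 families with enough reads the values ranged from 0.122 for TART-B (95% counting interval 0.105 to 0.142) to 1.01 for GATE (0.961 to 1.07), and 9 of 10 intervals lay below 1. So did 67 of the 109 intervals over all families and 23 of the 52 for families under 2-fold. TART-C, the remaining top family, had 99 reads in its smallest library and a value of 0.116. Outside the top group, Bari1 had the lowest value, 0.333 (0.298 to 0.372), with 6.12-fold more RNA. Also outside it, jockey was at 0.525 with 2.85-fold more RNA and blood at 0.713 with 15.7-fold more RNA. Input DNA of all 11 top families had a median of 1.25 times the control, between 0.610 for HeT-A and 2.10 for TART-A. The part of input DNA in the RNA ratios was not tested.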

How the data were processed

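The submitters' processing notes list Bowtie2 2.0.0, TopHat2 2.0.5 and DESeq 1.10.1 for RNA-seq, Bowtie2 and DESeq for GRO-seq, Bowtie2 and SICER 1.1 for ChIP-seq, and build dm3, without saying what each tool did. Values in the deposited tables are RPM (per 1000000 reads) per transposon and strand for RNA-seq and GRO-seq, per the file headers, and RPM and the ratio of H3K9me3 to input for ChIP-seq. How reads that map to several families were shared is not stated. Log2 ratios of RPM + 1 were computed for families averaging 1 RPM or more over the 4 RNA-seq sense columns. That mean includes nos piwi, so a family can pass through its level there alone. Each RNA-seq column was solved as the mean of 2 libraries with units in steps of 0.5 within 1e-07 of a unit. This procedure was chosen after the values were seen and after several tolerances and totals were tried. It gave 72 of 119 sense values in nos piwi and 77 of 119 in nos white. With the totals taken as given, 0.0624 and 0.0112 would be solved by chance. Those figures leave out that the totals were fitted to the same columns. Intervals of H3K9me3 use reads recovered from the steps, with totals of 2514000 to 2987000, and cover counting error only. Family lists, members and marks were chosen with earlier results of these data known. Named families were the 15 highest and 10 lowest ratios, the 10 largest gains, the 10 highest levels in each knockdown, the highest and lowest of each group and the 5 nearest to 2-fold on each side. Others were named after their values were seen. The recovery was checked on simulated reads, which held whole counts only and so did not cover values in steps of 0.5. Python 3.11.15, numpy 2.4.6 and pandas 2.3.3 were used. Sequences of the transposons were not used here.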

Additional observations from a re-analysis of the deposited data

Results flagged for a closer look

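Sense RNA of copia had a log2 ratio of 4.08 in nos piwi over nos white and of -1.53 in tj piwi over tj white, so the drivers gave opposite directions. The difference between drivers was not tested.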

How the results depend on the processing

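Centring on the median family left 38 families at least 2-fold higher and 15 lower, put the median of all families at 0.00, and turned the median of the other LINE elements to -0.0549, NOF to -0.0314 and S-element to -0.0890. With a pseudocount of 0.1 RPM 2 families were at least 2-fold lower, and a mean of at least 10 RPM gave a median of 2.03. That mean includes nos piwi, so families high there alone pass it, and a higher median is partly built in. An example is invader4, at 88.7 RPM in nos piwi and no more than 5.49 RPM in the other sense columns. With sense plus antisense RNA the summed fold was 1.74, the telomeric share 17.57% and the share of the 10 largest gains 76.7%; that share was 83.1% without the telomeric families. Without hopper, chosen after seeing the data, the summed fold was 9.33. A pseudocount of 5 RPM gave 29 families with at least 2-fold more antisense RNA. Ratios over low controls moved with the pseudocount. With 0.1 and 5 RPM the log2 ratio was 7.10 and 4.09 for Tirant, 5.28 and 2.97 for G-element and 3.38 and 1.43 for Bari1. The counts of families with more sense RNA stayed within 1.5 times under the other filters and pseudocounts. Of the 113 families, 63 were at least 2-fold higher with a pseudocount of 0.1 RPM and 52 with 5 RPM. No paired analysis was possible because the labels carry no replicate numbers. Depth limits families near 1 RPM, where 1 unit of the smaller library adds 0.371 RPM to the mean in nos piwi and 0.407 RPM in nos white.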

Other observations

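Some families that share a name differed widely in ratio under the nos driver, and others did not; they were chosen after their values were seen. Among the invader elements, LTR retrotransposons of the gypsy superfamily, the log2 ratio of sense RNA was 5.30 for invader4, 4.81 for invader2, 4.38 for invader3, 2.96 for invader6 and 0.47 for invader1. The invader1 libraries stood at 41.3 and 36.4 RPM in nos piwi and 32.0 and 23.6 RPM in nos white. Among the G elements, LINE elements of the jockey clade, it was 4.44 for G-element, 3.57 for G6 and 1.70 for G5, but 0.31 for G2, 0.13 for G4 and -0.22 for G5A. The BEL-Pao elements diver and diver2 had log2 ratios of 5.58 and 1.84. By contrast Stalker, Stalker2 and Stalker4 lay close together at 2.03, 2.02 and 1.69, and TART-A, TART-B and TART-C were all high at 6.63, 7.95 and 7.50.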
